A study of Mus musculus with 18 samples.

Results

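Itga2b encodes integrin alpha IIb (CD41), the platelet receptor chain for fibrinogen, which also marks megakaryocytes and early blood progenitors. Itga4 encodes integrin alpha 4 (CD49d), the chain with which progenitors hold to VCAM-1 and fibronectin. In mouse erythroleukemia (MEL) cells induced with hexamethylene bisacetamide (HMBA), the log2 ratio of Itga2b was higher on every array of days 4, 5 and 6 than on day 0 in series A and B, the arrays not marked SD, by 2.49 log2 (SE 0.77), and that of Itga4 was lower (-2.12 log2, SE 0.89). Both genes were chosen on these measured values, the opposite courses of their ratios by day, so the values are given as a description with no test. They were found by gene symbol, Itga2b as probe M003981_01 and Itga4 as probe M000475_01, and are 2 of 19 integrin chain probes among the probes of 5974 genes with a symbol (6868 probes in all).

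MEL is an established mouse line of transformed red cell precursors, and HMBA is a chemical that drives it toward hemoglobin-making cells. On each of 18 two-colour arrays, RNA of cells taken on day 0, 1, 2, 3, 4, 5 or 6 was set against RNA of cells that had received no HMBA. Titles gave a series letter. Series A had 1 array on each of the 7 days, series B had 1 on each day other than day 1, and 5 further arrays of series B were marked SD (days 0, 2, 3, 5 and 6). On the SD arrays of days 2, 3, 5 and 6 induced and control RNA had changed channels per the labels, and in all 3 arrays of day 0 both channels held control RNA. No other treatment, dose or clone was named in the labels, and nothing there said that arrays came from separate cultures. The spread between arrays may therefore be technical. Values below are log2 ratios from which the median of their array was subtracted. On the arrays other than SD their likely direction is induced over control, since the globin probes Hba-ps3 and Hbb-b2 were higher late there (4.43 and 2.34 log2, on 6 of 6 late arrays each). The direction was not settled by the labels.

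Integrins are surface receptors made of an alpha and a beta chain, and each alpha chain reaches the membrane only with its partner. Alpha IIb pairs with beta 3 (Itgb3), and alpha 4 pairs with beta 1 (Itgb1) or beta 7 (Itgb7). In the bone marrow, alpha 4 beta 1 holds red cell precursors to macrophages and stroma, and it is lost as precursors mature. Alpha IIb is shut down in the red cell lineage and kept in megakaryocytes, which share a progenitor with red cells.

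The members lie on different chromosomes. On GRCm38.p6, in RefSeq's annotation, Itga2b is at chr11:102453297-102469883 on the minus strand and Itga4 at chr2:79255426-79333114 on the plus strand. Because their ratios ran opposite ways, the 250 bases before each start site are shown side by side, 5′ to 3′ in the direction of the gene, as RefSeq gives them (chr11:102469884-102470133 and chr2:79255176-79255425). Capitals mark 4 motifs on either strand. They are GATA (TATC when read on the other strand), the ETS core GGAA (or TTCC on the other strand), the MYB core AACNG (or CNGTT on the other strand) and the RUNX core TGTGGT (or ACCACA on the other strand).
Itga2b: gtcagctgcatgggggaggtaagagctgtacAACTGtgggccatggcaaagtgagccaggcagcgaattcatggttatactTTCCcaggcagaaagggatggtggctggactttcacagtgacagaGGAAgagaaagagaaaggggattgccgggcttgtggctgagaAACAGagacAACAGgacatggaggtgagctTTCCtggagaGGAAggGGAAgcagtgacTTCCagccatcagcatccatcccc
Itga4: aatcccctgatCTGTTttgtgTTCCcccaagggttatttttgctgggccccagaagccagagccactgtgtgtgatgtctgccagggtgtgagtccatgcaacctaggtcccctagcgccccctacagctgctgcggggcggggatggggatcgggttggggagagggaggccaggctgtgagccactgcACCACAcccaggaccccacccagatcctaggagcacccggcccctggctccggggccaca
The Itga2b window held GGAA at 6 places, from -169 to -21 relative to the start site, and AACNG at 3 places, which begin at -219, -82 and -73. The Itga4 window held 1 GGAA match at -229 to -226, 1 AACNG match at -239 to -235 and 1 TGTGGT match at -60 to -55. GATA was in neither window, and no marked matches overlapped. Over all 32851 listed mouse promoters of this length, 93.4 percent held GGAA at least once, 74.2 percent AACNG, 53.6 percent GATA and 14.0 percent TGTGGT. How many promoters held several matches was not counted, so the numbers of matches in these windows have no background. All are letter matches in a short window and say nothing of binding.

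Itga2b had a value on all 13 arrays other than SD. From day 0 to day 6 its centred log2 ratios in series A were 0.32, 0.75, 0.70, -0.50, 3.33, 2.72 and 1.24. In series B they were -0.37 on day 0 and then 1.40, 1.66, 2.06, 2.63 and 2.81 from day 2 to day 6. All 6 late arrays were above both day 0 arrays, and the lowest of them, day 6 of series A, was below day 2 and day 3 of series B. The series thus disagreed on day 3, where one array was the lowest of all 13 and the other was above every array of days 0 to 2. They also disagreed on where the ratio was highest, which was day 4 in series A and day 6 in series B.

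By day mean, the order of Itga2b ran from day 4 (2.69 ± 0.90, SD, n = 2) and day 5 (2.68 ± 0.064, n = 2) over day 6 (2.02 ± 1.11, n = 2), day 2 (1.05 ± 0.50, n = 2), day 1 (0.75, n = 1) and day 3 (0.58 ± 1.53, n = 2) to day 0 (-0.03 ± 0.48, n = 2). No neighbours in this order differed by more than the larger SD of their days. The widest gap, between days 6 and 2, was 0.98 log2 against an SD of 1.11. Relative to day 0, days 4, 5 and 6 were 2.72, 2.70 and 2.05 log2 higher (SE 0.95 each), and days 1, 2 and 3 were 0.78, 1.07 and 0.60 log2 higher (SE 1.16, 0.95 and 0.95). The late mean was 5.62-fold that of day 0. It was 2.11 log2 above day 0 within series A and 2.87 log2 within series B, each with 3 late arrays.

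Itga4 had a value on 11 of the 13 arrays and none on days 3 and 5 of series A. In series A its values on days 0, 1, 2, 4 and 6 were 1.32, -0.59, -0.48, -3.04 and -2.60. In series B those of days 0, 2, 3, 4, 5 and 6 were 0.69, 1.20, 0.38, -0.76, 0.20 and -0.69. All 5 late arrays were below both day 0 arrays. In series A the ratio was below day 0 from day 1 on, whereas in series B day 2 was above day 0.

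The day means of Itga4 ran from day 0 (1.00 ± 0.45, SD, n = 2) over day 3 (0.38, n = 1), day 2 (0.36 ± 1.19, n = 2), day 5 (0.20, n = 1), day 1 (-0.59, n = 1) and day 6 (-1.64 ± 1.35, n = 2) to day 4 (-1.90 ± 1.61, n = 2). Only the step from day 0 to day 3 (0.63 log2) exceeded the larger SD of its days (0.45), and between days 5 and 1 there was no SD to compare with. Relative to day 0, days 4 and 6 were at -2.90 and -2.65 log2 (SE 1.05 each) and day 5 at -0.80 (SE 1.29). The late difference was -4.14 log2 in series A (2 late arrays) and -1.10 in series B (3 late arrays), so its size differed between the series by more than that of Itga2b. Against the array medians alone, without day 0, the late ratio of Itga4 was -1.11. The other part of its difference was the day 0 mean of 1.00, on arrays with control RNA in both channels. For Itga2b the late ratio without day 0 was 2.47, because its day 0 mean was near 0.

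**Figure D1:**
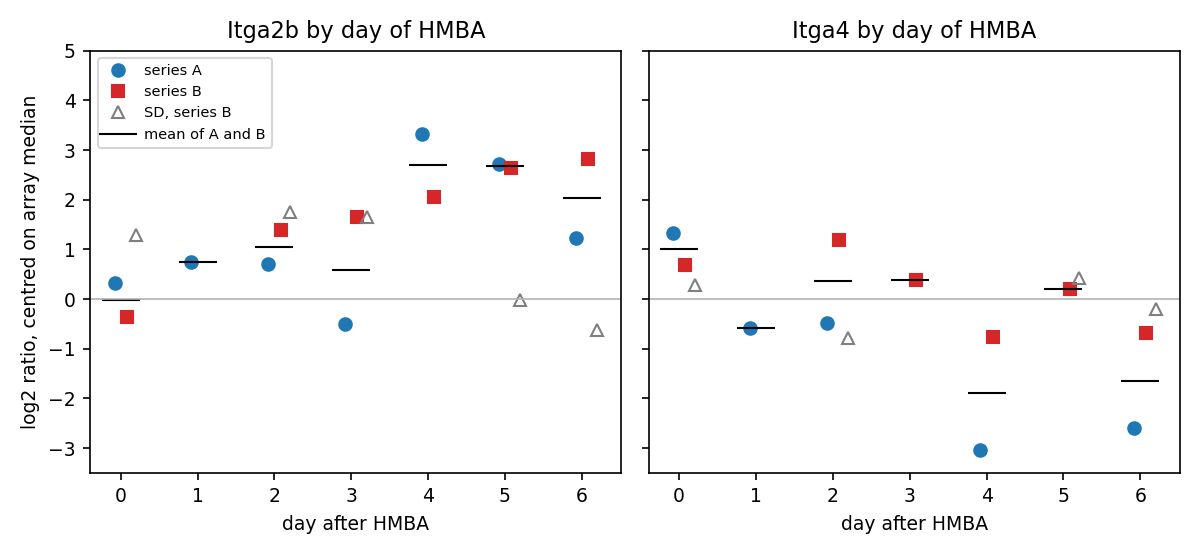
Centred log2 ratios of Itga2b (left) and Itga4 (right) against day after HMBA, with circles for series A, squares for series B, open triangles for the SD arrays as deposited and a black bar for the mean of series A and B. For Itga2b the 6 late circles and squares lie between 1.24 and 3.33, above both of day 0, and for Itga4 the 5 late ones lie between -3.04 and 0.20, below both of day 0, while the triangles of Itga2b on days 5 and 6 lie at -0.01 and -0.62.

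Over the 1211 probes with a late contrast, limma called 0 percent at an adjusted p under 0.05, and 28 (2.31 percent) had an unadjusted p under 0.05. Among these probes Itga2b had the fifth highest and Itga4 the fourth lowest late difference, which is a description, since the late days were part of how they were picked. Every late array lay above every day 0 array for 5.53 percent of the tested probes, and below for 3.88 percent. The median late difference of all tested probes was 0.21 log2, and 0.46 without centring. Relative to that median, Itga2b was 2.28 log2 higher and Itga4 at -2.33, and without centring these were 2.26 and -2.35.

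The difference between the 2 log2 ratios on the same array is not changed by centring. It was -1.004 and -1.06 on the day 0 arrays of series A and B. On all 9 induced arrays of series A and B with both values it was above both of these. The SD arrays ran otherwise: the difference was 1.02 on SD day 0, which is above day 2 of series B, and relative to it SD day 2 was at 1.53 and SD days 5 and 6 at -1.45 and -1.44. In series A the differences of days 1, 2, 4 and 6 were 1.34, 1.18, 6.36 and 3.84. In series B those of days 2 to 6 were 0.20, 1.28, 2.81, 2.43 and 3.50. Relative to the day 0 mean of series A and B, their 3 early arrays (days 1 and 2) were between 1.23 and 2.37 log2 higher. The 5 late arrays were between 3.46 and 7.39 log2 higher. Such a difference shows unequal change of the members and not which of them changed. The genes were picked for opposite courses by day, so its rise and the count of 9 arrays describe that choice. The same was not counted for other pairs of probes.

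**Figure D2:**
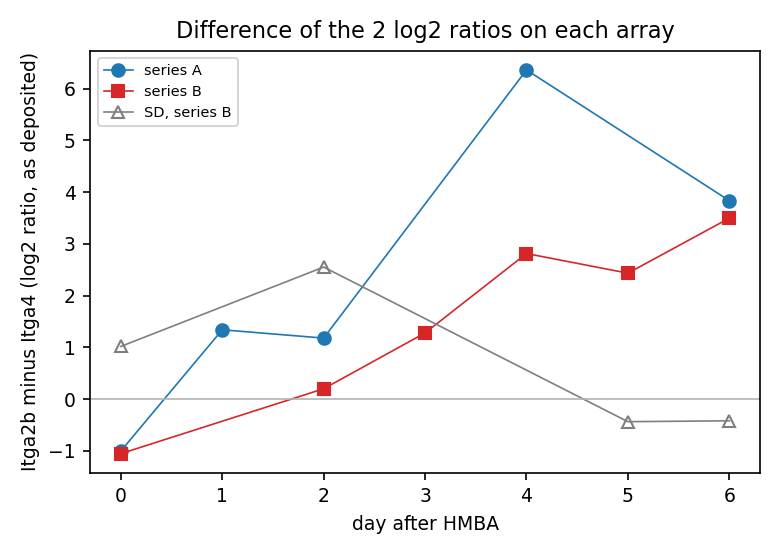
Deposited log2 ratio of Itga2b minus that of Itga4 on each array (vertical axis, log2) against day after HMBA, with lines joining the arrays of series A, series B and the SD arrays. Series A and B start at -1.004 and -1.06 on day 0 and reach 3.84 and 3.50 on day 6, while the SD arrays go from 1.02 on day 0 to -0.42 on day 6.

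The SD arrays did not show the same courses as deposited. On days 0, 2, 3, 5 and 6 Itga2b was at 1.29, 1.76, 1.64, -0.01 and -0.62. Its ratio on days 5 and 6 was thus below SD day 0, by 1.30 and 1.91 log2 (-1.30 and -1.91), where the series B arrays of those days were 3.00 and 3.18 log2 above their own day 0. With the sign of the SD arrays turned, days 5 and 6 would be 1.30 and 1.91 log2 higher, but days 2 and 3 would be at -0.47 and -0.35. On days 0, 2, 5 and 6 Itga4 was at 0.27, -0.79, 0.43 and -0.20. Its SD values on days 5 and 6 differed from SD day 0 by 0.15 and -0.47, against -0.49 and -1.37 in series B. With the SD arrays averaged in as deposited, the late differences of the globin probes Hba-ps3 and Hbb-b2 were 2.23 (SE 1.82) and 1.31 log2 (SE 0.99). With the SD sign turned they were 4.94 (SE 1.11) and 2.49 log2 (SE 0.72). As deposited, the SD arrays of days 2, 3, 5 and 6 correlated across probes with the series B array of the same day at 0.42 to 0.58. With day 0 of series B they correlated at 0.41 to 0.58. The orientation of the SD arrays is not settled by the labels and was not tested, so they are given apart. Across the 3 control arrays of day 0, Itga2b ranged from -0.37 to 1.29, and the upper value exceeded the lowest late value of 1.24. Itga4 ranged there from 0.27 to 1.32, above its highest late value of series A and B (0.20). Its SD day 5 value of 0.43 as deposited lay within that day 0 range. With the SD arrays averaged in as deposited, the late difference of Itga2b was 1.46 log2.

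Of the partner chains, beta 3 could not be followed: Itgb3 had a value on 2 of 13 arrays (-2.12 on day 1 and 2.02 on day 2 of series A). Itgb1, the common beta chain that pairs with alpha 4, was at 0.68 and 0.11 on day 0 of series A and B. On the late arrays it was 1.11 on day 4 and 0.13 on day 5 of series A, and 0.95, 0.26 and 1.00 on days 4, 5 and 6 of series B. The groups overlapped, and its late difference of 0.34 log2 (SE 0.78, 3 of 5 late arrays above the day 0 mean) did not pass the test (limma, adjusted p = 0.9999). The lowest value of Itgb1 was on day 3 of series A (-1.71), the array on which Itga2b was lowest too. Itgb7, the beta chain of gut-homing alpha 4 receptors, was measured on 7 arrays, with -0.60 on day 0 and -0.55, -1.77 and 0.34 on days 4, 5 and 6 of series A. Its late difference of -0.06 log2 was 0.40 without centring, 0.07 with quantile normalization and 0.16 with equal spread of the arrays.

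Itgav, the alpha chain of vitronectin receptors and another partner of beta 3, was at 1.52 and 0.79 on day 0 and between 0.09 and 2.39 on 5 late arrays. Its late difference was 0.38 log2 (SE 0.84, limma, adjusted p = 0.9999), but it was -0.24 with quantile normalization, -0.11 with equal spread and -0.0022 without day 4 of series A. Itga5, the fibronectin receptor chain, was at 0.81 and 1.24 on day 0, between 0.88 and 1.57 on the 3 early arrays and between -1.58 and 1.08 on 5 late arrays. The late difference of Itga5 was -1.15 log2 (SE 0.72, limma, adjusted p = 0.9999), from -1.37 to -0.94 when arrays of days 0 and 4 to 6 were left out in turn, and 4 of 5 late arrays were below the day 0 mean. Itgav, Itgb1 and Itga5 were the 3 other integrin probes with enough values to test. Limma called 0 of 3 late, early, late minus early or on any day, where it called 0 percent of all tested probes as well, and 0 of 3 had an unadjusted late p under 0.05.

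Among chains below the minimum for testing, Itgb2, the shared beta chain of leukocyte integrins, had values of -1.50 and -2.68 on day 0. It was 1.15 and -0.35 on days 4 and 5 of series A, and 1.21 and -0.77 on days 5 and 6 of series B. All 4 late arrays were thus above both day 0 arrays. How often this held for other probes with as few late arrays was not counted. The late difference of Itgb2 was 2.36 log2 (SE 0.88, 10 of 13 arrays, from 1.77 to 2.96 when the same arrays were left out in turn). It was 1.28 with the SD arrays averaged in with their sign turned, and without day 0, whose mean was -2.09, the late ratio of Itgb2 was 0.27. Day 2 of both series (-1.87 and -1.72) was as low as day 0. Itga6, a laminin receptor chain, was at 1.75 and 2.18 on day 0 and at 0.62, 2.54 and 0.99 on days 4, 5 and 6 of series B, a late difference of -0.58 (SE 1.03). Over the 6 other chains with a full late contrast, the late difference was above 0 for 3 and below 0 for 3 (median 0.14 log2). That median was -0.09 with quantile normalization and 0.44 without centring. Over all 2615 probes with a full late contrast, 1554 were higher, with a median of 0.16.

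**Figure D3:**
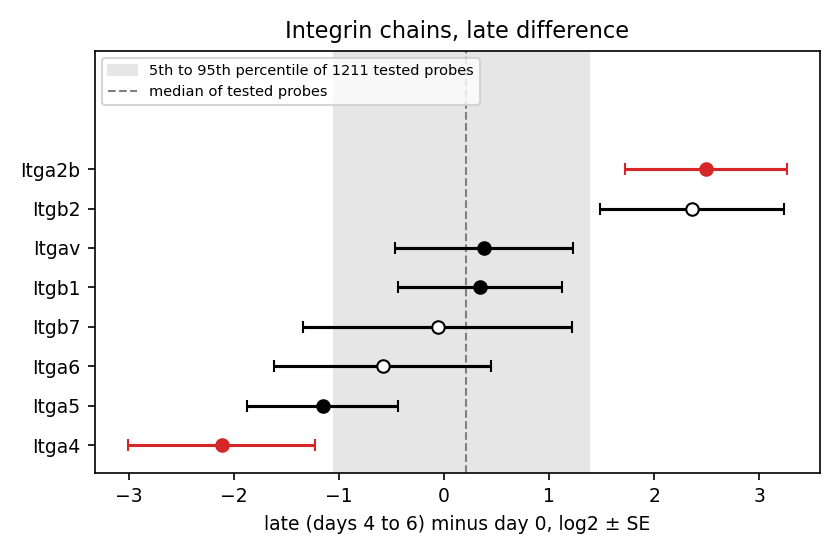
Late difference (mean of days 4, 5 and 6 minus day 0, log2, horizontal axis) of 8 integrin chains with the SE of the fit as bars, with Itga2b and Itga4 in red and open circles for chains below the minimum for testing. Itga2b at 2.49, Itgb2 at 2.36, Itga5 at -1.15 and Itga4 at -2.12 lie outside the grey band, which spans the 5th to 95th percentile of all 1211 tested probes (-1.05 to 1.38).

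The remaining 11 chains had too few values for a late contrast. Itgal, the alpha chain of LFA-1, was at -0.22 on day 0 and at -1.20, -0.17 and -0.67 on 3 late arrays. Itga7, a laminin receptor chain of muscle, was at 0.68 on day 0 and at -1.58, 1.16 and 0.64 late. Itgax, a chain of dendritic cells, was at 1.09 on day 0 and 1.40 and 1.37 late, and Itgb4, a chain of epithelia, was at -0.02 on day 0 and 2.22 and 0.49 late. Itgb5 was at -0.78 on day 0 and 0.99 and 0.21 late, and Itga8 at 0.85 on day 0 and 1.11 late. Itga2 had no late value, and Itgae, Itga3 and Itgb6 had no day 0 value, as was the case for Itgb3. In all, 14 of the 17 other chains had a value on fewer than 11 of the 13 arrays, so the members were among 5 integrin probes with near complete courses.

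**Figure D4:**
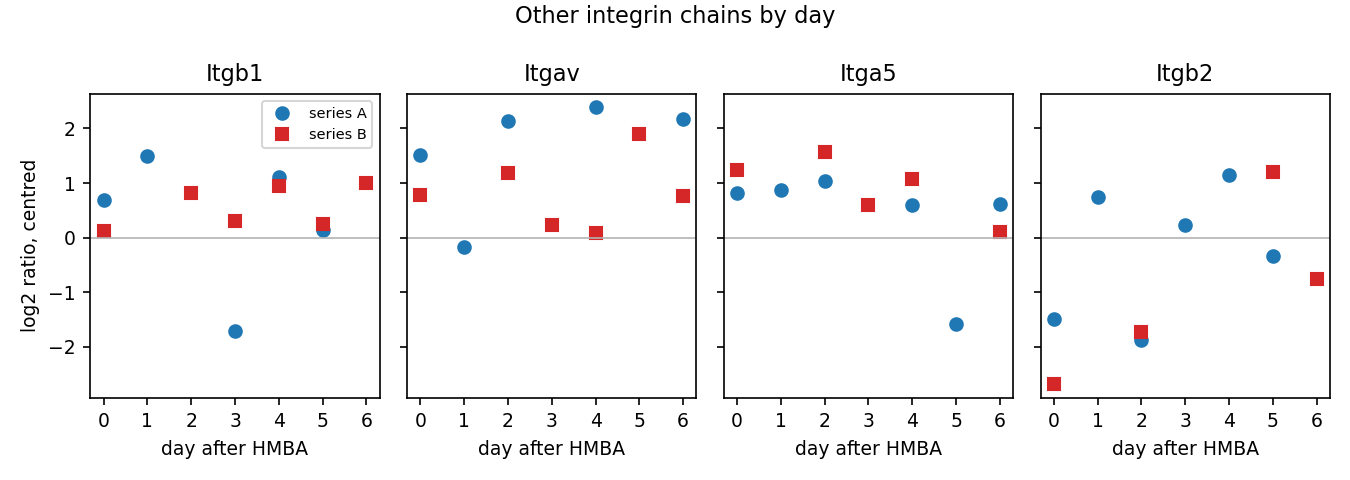
Centred log2 ratios of Itgb1, Itgav, Itga5 and Itgb2 against day after HMBA, circles for series A and squares for series B. Day 0 and late values overlap for Itgb1, Itgav and Itga5, and the 4 late values of Itgb2 (-0.77 to 1.21) lie above both of day 0 (-2.68 and -1.50).

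Of genes that bind or signal from integrin tails, 12 of 29 probes on the array had a full late contrast, 9 higher and 3 lower. Their median was 0.61 log2, where over all probes 1554 of 2615 were higher (median 0.16). Cib1, a calcium-binding protein that binds the alpha IIb tail, was 1.14 log2 higher (SE 0.72, 5 of 6 late arrays). Actn4, an actinin that ties integrins to actin filaments, was 1.13 log2 higher (SE 0.84, 4 of 6), and Rac1, a GTPase of actin remodelling measured on 8 arrays, 1.98 log2 higher (SE 0.97, 4 of 4). Here and for the lists below, such counts are of late arrays above or below the day 0 mean, in some genes that of a single array. The share over all probes was not counted. Listed genes were named for their small late p-value, so the counts describe that choice. When the day 0 array of series A was left out Rac1 was at 3.18 and Actn4 at 1.75, and when that of series B was left out they were at 0.79 and 0.51. None was called, where limma called 0 percent of all 1211 tested probes. Cib1 and Actn4 had an adjusted p = 0.9999 in limma, and Rac1 was below the minimum for testing. Of integrin ligands, 3 of 16 probes had a full contrast. Icam2, a ligand of LFA-1, was at -0.49, the laminin chain gene Lama5 at 0.14 and F11r, a junction protein, at -0.13, all within their SE of 0.84 to 0.92. Their median was -0.13, but 0.04 without centring.

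Of other surface genes of progenitors, 10 of 22 probes had a full late contrast, with 7 higher, 3 lower and a median of 0.61 log2. The 5 of them with enough values to test were all higher (median 0.83). Over all probes, 1554 of 2615 with a full late contrast were higher (median 0.16), and 759 of the 1211 tested (median 0.21). Csf2rb, the shared beta chain of the IL-3 and GM-CSF receptors, was 1.32 log2 higher (SE 1.24, 5 of 5 late arrays, 1 day 0 array). Cd82, a tetraspanin, was 1.22 log2 higher (SE 1.34, 4 of 5, 1 day 0 array) and Cd47, a protein that associates with integrins, 0.90 log2 higher (SE 0.90, 4 of 6). Of surface genes of red cell precursors, 7 of 11 were higher, with a median of 0.06. Of the 6 with enough values to test, 3 were higher and 3 lower (median -0.03). Tfrc, the transferrin receptor, was 2.76 log2 higher (SE 1.17, 4 of 4 late arrays, 1 day 0 array). With the SD arrays averaged in, Tfrc was at 1.12 as deposited and at 2.34 with their sign turned, and it was at 1.14 against 0 in place of day 0. Ermap and Cd24a, an adhesion protein and an early surface antigen, were at -1.51 (SE 1.21, 1 day 0 array) and -0.86 (SE 0.80), lower on 3 of 3 and 6 of 6. Limma called 0 probes of either list, where it called 0 percent of all 1211 tested probes.

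Markers of megakaryocytes were looked at beside Itga2b. Of 11 such genes 5 had a probe and 3 a full late contrast, none with enough values to test. Gp1bb and Gp5, parts of the receptor for von Willebrand factor, were at 0.40 (SE 1.15, 1 day 0 array) and -0.62 (SE 0.94), and the platelet chemokine gene Pf4 at 0.10 (SE 1.16). The wider list of megakaryocyte and platelet genes had 6 of 20 probes with a full contrast, 4 higher and 2 lower, median 0.25. It included Plek, a kinase substrate of platelets, at 0.98 (SE 0.70, 5 of 6 late arrays) and Pdgfa, a growth factor gene, at -1.32 (SE 0.86, lower on 4 of 4). For these and the marker lists below, the share over all probes was 1554 of 2615 higher (median 0.16). The part of such cells in the ratio of Itga2b was not tested. Of markers of erythroid cells, 7 of 8 with a full contrast were higher (median 1.71 log2). Of the 5 with enough values to test, 4 were higher, with a median of 0.67. Over all 1211 tested probes, 759 were higher (median 0.21). Among those not tested was Alas2, the erythroid enzyme that starts heme synthesis (3.60, SE 1.16, 9 of 13 arrays, 1 day 0 array). With the SD arrays averaged in, Alas2 was at 1.07 as deposited and at 3.64 with their sign turned. Of mast cell markers, Mcpt2, a protease gene, was at -3.14 (SE 1.19, lower on 6 of 6 late arrays, 1 day 0 array) and Tpsb2, a tryptase gene, at -0.02. With the SD arrays averaged in, Mcpt2 was at -1.51 as deposited and at -5.23 with their sign turned. Of macrophage markers, Mpeg1 was at 0.86 (SE 0.89), and the lymphoid list had Itgb7 alone.

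A list of transcription factors of blood cells and their cofactors held, but not only, factors of the motif families searched above. Of its 26 probes 15 had a full late contrast, 8 higher and 7 lower. The median was 0.04 (-0.0011 with quantile normalization), where over all probes 1554 of 2615 were higher. Myb, a factor of dividing progenitors, was at -2.49 log2 (SE 0.88, limma, adjusted p = 0.9999), lower on 6 of 6 late arrays. Sp1, a general promoter factor, was at -1.56 (SE 1.13, lower on 4 of 4, 1 day 0 array) and Klf1, a factor of globin genes, at 1.08 (SE 0.94, higher on 4 of 5). Both were below the minimum for testing. Klf1 was at 1.85 when the day 0 array of series A was left out and at 0.30 when that of series B was.

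The probes most like each member in course were found by the root mean square difference of their centred log2 ratios over the 13 arrays, after each probe's mean was removed. Itga2b was compared with 1078 probes, at a median distance of 1.42 log2, on at least 11 shared arrays. Nearest were Gjd2, a connexin gene (0.72 log2, late difference 1.47), Npy4r, a peptide receptor gene (0.74, late 1.63), Cfl1, an actin-severing cofilin (0.76, late 1.30), Idh1, a dehydrogenase of the cytosol (0.78, late 1.03), and Oaz2, an inhibitor of polyamine synthesis (0.79, late 0.99). The late difference of each was smaller than that of Itga2b, and the spread of Itga2b about its own mean was 1.19. Itga4 could be compared with 327 probes, at a median distance of 1.67 log2. Nearest were Tiam1, an activator of Rac (0.52, late -1.85), Slc11a2, an iron importer (0.61, late -1.67), Mre11a, a nuclease of DNA repair (0.72, late -1.29), Pcna, the clamp of DNA polymerases (0.89, late -0.88), and Emp3, a membrane protein (0.95, late -0.75). Tiam1 also had its low values on days 4 and 6 of series A (-1.65 and -1.66) and a day 5 value of series B (1.48) above those of days 4 and 6 (-0.14 and 0.62), as Itga4 did. These distances describe likeness on the same arrays and carry no test, and the probes share the arrays' own errors.

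**Figure D5:**
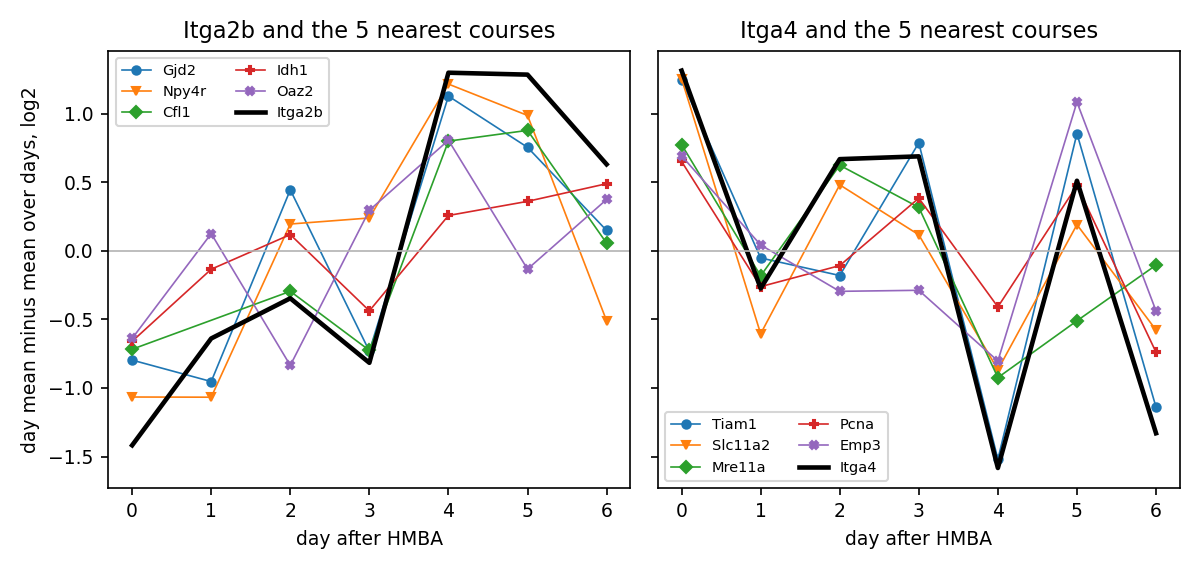
Day means of the centred log2 ratio minus their mean over days (vertical axis, log2) against day after HMBA for Itga2b (left) and Itga4 (right) as thick black lines and the 5 probes nearest to each. On the left the lines of Itga2b and Cfl1 are higher on days 4 and 5 than on days 0 to 3, and on the right Itga4 and Tiam1 are lowest on day 4 and higher on day 5.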

How the data were processed

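The deposited table held log2 ratios of 6868 probes on 18 two-colour arrays. The scale was recognised from its values: low values of the 13 arrays other than SD gave, as powers of 2, ratios of 3 decimals, and on the 5 SD arrays high values with their sign turned did so. For dyes, scanner, image analysis and the authors' normalization the sources used here give nothing, and no spot intensities were used. Array medians ranged from -0.09 to 0.63 on the 13 arrays and from -0.15 to 0.70 on SD arrays, and that median was subtracted. Between 2008 and 4945 probes had a value on the 13 arrays.

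Probes were named from the platform annotation (6108 with 1 symbol, 41 with several, 719 with none), and 6062 were matched by Entrez identifier to RefSeq (GRCm38.p6) with 0 updates. The 1221 probes measured on 11 or more of the 13 arrays, and on 1 of day 0, were fitted with a mean per day by limma 3.58.1 in R 4.3.3, with Benjamini-Hochberg adjustment at 0.05. Precision is limited by the number of arrays. The single array of day 1 was assumed to vary like the other days. Probes below that minimum have values from a fit without it. Late is the mean of days 4, 5 and 6, early that of days 1 and 2. The fit was also run on simulated data with independent noise and a constant late shift. These held no error shared between probes or arrays, so they could not show how the fit fares with such error.

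The members and gene lists were chosen with earlier results of these data known. Genes named were the members, other integrin chains, the 3 probes of each list with the smallest late p-value, and the 5 probes nearest each member in course.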

Additional observations from a re-analysis of the deposited data

Results flagged for a closer look

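The ratio of Itga2b moved one way on the series B arrays of days 5 and 6 and the other way on the SD arrays of the same days. Relative to day 0 of the same kind, the mean of days 5 and 6 was 3.09 log2 in series B and -1.61 on the SD arrays as deposited, with both arrays of each kind on the same side. With the SD sign turned it would be 1.61. The difference was not tested. For Itga4 the same means were -0.93 and -0.16. Over all 876 probes with these values, 51.5 percent had opposite signs in series B and on the SD arrays, and 62.5 percent of the 56 probes that moved by over 2 log2 in series B.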

How the results depend on the processing

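The late differences of Itga2b and Itga4 kept their direction under every alternative that gave a value. Both genes were picked for their courses on these values, so this gives no support to the direction. All their late arrays of series A and B lay beyond both day 0 arrays, so leaving out a single array could not turn the sign. Taken alone and as deposited, SD days 5 and 6 relative to SD day 0 were at -1.61 for Itga2b and -0.16 for Itga4. With the SD sign turned these were 1.61 and 0.16. Leaving out each array in turn put Itga2b between 2.15 and 2.83 and Itga4 between -2.50 and -1.74. Without day 5 of series B Itga4 had no day 5 value and no late difference. With SD arrays averaged in as deposited Itga2b was at 1.46 and Itga4 at -1.67, and with their sign turned at 2.46 and -1.59. With the series letter as a replicate block they were at 2.49 and -2.33. The letter is no stated pairing: the difference between series A and B correlated from day to day at 0.0282 to 0.394 over 15 pairs of days. The block gave 1 late call over all probes (Hba-ps3), as did leaving out day 3 of series A or B (range 0 to 1), and changed no call of an integrin probe. Ratios tested against 0 and not against day 0 gave 309 late calls among the 1211 tested probes. Of the 3 other integrins with enough values to test, 1 was called (Itgav at 1.53, whose day 0 mean of 1.15 is then not subtracted). The cause of this count was not tested. Leaving out arrays of days 1 to 3, and part of the alternatives for early, late minus early and any day, were added after seeing the data.

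Some late differences changed sign, among them those of Rac1, Tiam1, Cd82 and Klf1, which were over 1 log2 in size. Against 0, Cd47 was at -0.39, Cd82 at -0.32, F11r at 1.28, Itga6 at 1.38, Klf1 at -0.69, Pf4 at -1.34, Rac1 at -0.14, Tiam1 at 0.0205 and Tpsb2 at 0.28. With SD arrays turned, Cd47 was at -0.0811, F11r at 0.0794 and Pf4 at -0.75, and with SD arrays as deposited F11r was at 0.0478 and Tpsb2 at 0.15. With the replicate block F11r was at 0.0172, Pf4 at -0.34 and Tpsb2 at 0.13. Without centring F11r was at 0.0393, Itgb7 at 0.40 and Tpsb2 at 0.37. With quantile normalization Itgav was at -0.24 and Itgb7 at 0.0673, and with equal spread at -0.11 and 0.16. Leaving out arrays of days 0, 4, 5 and 6 in turn put F11r between -0.89 and 0.63, Itgav between -0.0022 and 0.76, Lama5 between -0.22 and 0.50, Pf4 between -0.54 and 0.74 and Tpsb2 between -0.12 and 0.0726. The cause of these reversals was not tested.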
